A study of Homo sapiens with 8 samples.

Results

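The small nucleolar RNA (snoRNA) host genes examined here are 10 long non-coding RNA genes: SNHG1, SNHG5, SNHG6, SNHG7, SNHG8, SNHG12, SNHG16, SNHG29, GAS5 and ZFAS1. The genes were chosen by name, with earlier results of these data known. Every transcript in the count table that GENCODE version 44 assigns to any of them was included. That gave 10 of the 62639 genes with a row and 406 of the 254070 transcripts, and 266 of these 406 were counted in 1 or more libraries. The RNA came from MOLM-13, a human acute myeloid leukemia (AML) cell line of monocytic type that was carrying a dox-inducible shRNA, and all 8 libraries were made after 9 days of dox (doxycycline, which switches the shRNA on). In 4 libraries the shRNA was directed against PTBP1 (shPTBP1, genotype PTBP1 KD), and in the 4 control libraries it was a scrambled sequence (shSCR), so that dox was shared by both groups. These libraries come from 1 shRNA of each kind in a single cell line, and other differences between the cells carrying them cannot be told apart from the loss of PTBP1. Replicates are labelled as biological, and p values measure only the spread between these libraries. RNA was primed at its poly(A) tail and the cDNA was read by nanopore in long reads, from which counts per annotated splice isoform were made and then summed per gene.

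snoRNAs are short nucleolar RNAs that guide the modification of ribosomal RNA, box C/D snoRNAs (SNORD) for ribose methylation and box H/ACA snoRNAs (SNORA) for pseudouridine. In human cells they are cut out of the introns of host genes after splicing, and in the genes examined here the spliced exons form a long non-coding RNA. Many of these spliced RNAs begin with a run of pyrimidines like that of ribosomal protein mRNAs (5′ terminal oligopyrimidine, 5′TOP), engage ribosomes, and are short-lived because nonsense-mediated decay (NMD) removes them. PTBP1 is an RNA-binding protein that binds pyrimidine-rich stretches near exons and often represses their inclusion, and its loss releases its paralog PTBP2.

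The sequences below show a place in ZFAS1 and a place in GAS5 where their leading isoforms differ, and the starts of genes whose levels are described. The leading isoforms of ZFAS1 also differ in their start, and their change is not one of the printed exon alone, as described below. All were read from hg38, on the strand of the gene. The exon of ZFAS1 that part of its isoforms leave out is 62 bases long (chr20:49280903-49280964, plus strand) and lies in an exonic part of the non-coding RNA, 332 bases after the preceding exon and 8080 bases before the next. It is printed in capitals with 100 bases of the intron before it and 30 bases of the intron after it (chr20:49280803-49280994).
ZFAS1 exon: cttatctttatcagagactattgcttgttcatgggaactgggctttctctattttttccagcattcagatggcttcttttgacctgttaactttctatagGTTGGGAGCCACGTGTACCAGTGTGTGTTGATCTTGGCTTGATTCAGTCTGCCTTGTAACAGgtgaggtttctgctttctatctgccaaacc
SNORD12, a box C/D snoRNA, is annotated in the same intron and ends 130 bases before this exon. The 100 intronic bases hold TCTT 2 times, TTCTCT once and CTCTCT not at all, searched on the RNA strand with overlapping matches counted. Among 79992 windows of the same length before internal exons of the genes tested, 29.6% held TCTT at least as often, and 12.6% held TTCTCT. Pyrimidines made up 64% of this window, with a median of 55% over all windows and 12.1% of windows at least as rich. Matches of short letters are common and do not mark a bound site.

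The other sequences are from GAS5 and from annotated gene starts. The 2 leading isoforms of GAS5 differ inside the RNA, among other places, at an exon with 2 alternative 5′ splice sites (chr1:173865471-173865547, minus strand, 77 or 38 bases). Capitals mark the 39 bases that the longer form adds. In lower case before them are 20 bases of intron and then the 38 exonic bases that both forms share. After the capitals follow 20 bases of intron.
GAS5 alternative 5′ site: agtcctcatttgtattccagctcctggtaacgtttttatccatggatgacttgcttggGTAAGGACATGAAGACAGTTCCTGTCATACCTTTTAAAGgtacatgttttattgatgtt
Start windows run from 10 bases before to 20 bases from the annotated start of the leading isoform, and capitals mark a C followed by at least 4 pyrimidines that begins within 5 bases of that start.
SNHG29 start (chr17:16438973-16439002, plus strand): ccctcCTTTTgtgaggattgggatattccg
SNHG8 start (chr4:118278696-118278725, plus strand): cggcgCTTCCCCCggaatagcgtcatcagt
SNHG5 start (chr6:85678729-85678758, minus strand): ggagctactggctgcgcacttcggtctttt
ZFAS1 start (chr20:49278630-49278659, plus strand): aagccattcgttCTTTCgcgtctgcggtgc
Such a run was found in 5 of the 10 host genes (SNHG6, SNHG8, SNHG12, SNHG29 and ZFAS1) and in 50 of 75 ribosomal protein genes. It was found in 3 of 12 other non-coding snoRNA host genes (25%) and in 20.7% of all 7597 genes tested. Annotated starts can lie a few bases from the true start, so a window without a run does not show that the RNA lacks it.

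The libraries held 1528449 to 1613342 counts each, and the host genes held 8761 to 11890 of them. PTBP1 was lower in the shPTBP1 libraries (9.88 ± 3.55 against 47.5 ± 7.81 counts per 1000000, CPM, mean ± SD, n = 4 each; log2 fold change -2.26, adjusted p = 7.18e-05), and PTBP2 was higher (124 ± 5.44 against 1.45 ± 0.814 CPM; log2 fold change 6.36, adjusted p = 2.14e-10). Of 10 markers of MOLM-13, LYZ, CD33, ITGB2, CD4, HOXA9 and MPO were abundant enough to test, SPI1 had 1 count in all libraries together, and ITGB2 and CD4 were lower after shPTBP1 (log2 fold changes -0.73 and -0.47, adjusted p = 0.0193 and 0.000597). Of 7 markers of other cells only PECAM1 was tested and it was not called (log2 fold change -0.05), HBB, GATA1 and CD3E had no count, and COL1A1 and EPCAM were at or near 0. The mean annotated transcript length per count was 1837 ± 31.3 nt in shPTBP1 and 1867 ± 35.3 nt in shSCR, the share of counts on ribosomal protein genes was 14.1 ± 0.767% and 13.2 ± 0.532%, and the share on mitochondrial genes was 1.95 ± 0.159% and 1.62 ± 0.362%. All 3 measures overlapped between the groups. For transcript length, a fit of gene levels with its trend removed is given in the last section. The part of the other measures in the results below was not tested.

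To compare levels between the host genes, CPM was divided by the mean length of each gene's transcripts, weighted by their counts. On this scale of CPM per kb, SNHG5 was highest in the control cells (3443 ± 345), followed by ZFAS1 (2128 ± 186), SNHG6 (1725 ± 189), SNHG29 (969 ± 20.5) and GAS5 (791 ± 33.0). SNHG8 (143 ± 8.27), SNHG16 (111 ± 12.9), SNHG1 (30.3 ± 6.82), SNHG12 (9.30 ± 1.52) and SNHG7 (3.10 ± 1.36) followed. The order was the same in the shPTBP1 libraries. ZFAS1 and SNHG6 were the only neighbours whose libraries overlapped, in both groups. SNHG5, ZFAS1 and SNHG29 together held 69.3% to 70.7% of the host genes' counts in every library, so a sum over the host genes mostly reports these 3 genes. That sum was 7494 ± 517 CPM in shPTBP1 and 6255 ± 455 CPM in shSCR, with library ranges of 6732 to 7822 and 5578 to 6565 CPM that did not overlap.

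**Figure D1:**
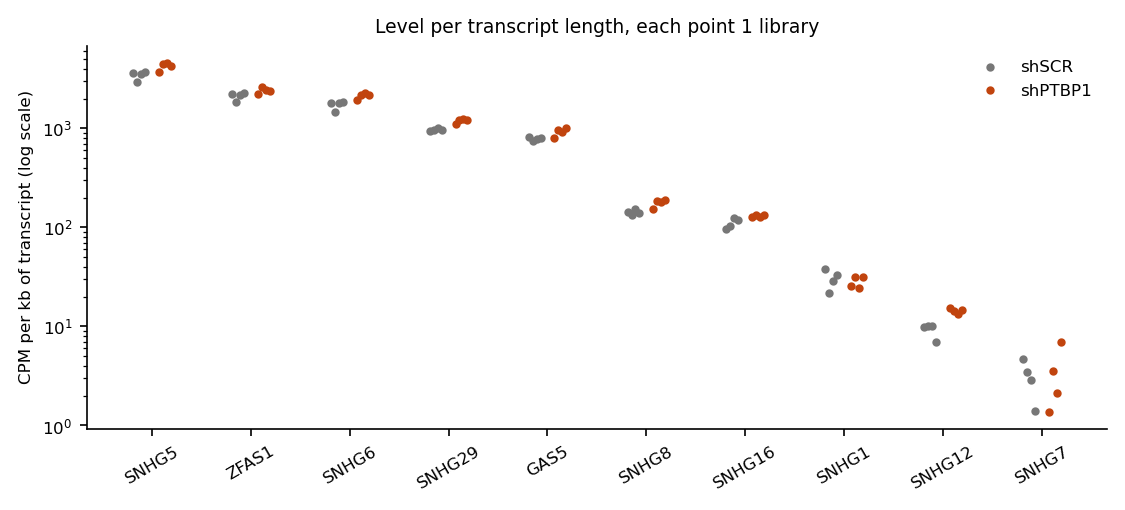
CPM per kb of transcript (y axis, log scale) of each host gene in each library, grey for shSCR and red for shPTBP1. The genes span from SNHG5, at 3443 CPM per kb in shSCR, down to SNHG7, at 3.10 CPM per kb, in the same order in both groups.

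To ask whether host gene levels changed after PTBP1 KD, gene counts were tested with edgeR over all 7597 genes that passed a filter on low counts. Of the 10 host genes, 9 passed the filter, 4 were called higher (SNHG29, SNHG8, SNHG6 and SNHG5, adjusted p under 0.05) and 0 were called lower. Over all genes tested 2.36% were called higher and 3.19% lower. The fold change was positive for 8 of the 9 genes, with a median log2 fold change of 0.30 beside -0.00 over all genes. In 6 of the 9 every shPTBP1 library was above every shSCR library, which was the case for 6.32% of all genes tested. The changes were small: the 4 called genes were 22.8% to 24.5% higher on average. Because these are bulk samples, a change in the number of cells expressing a gene and a change in its RNA per cell cannot be told apart.

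SNHG29, the host of SNORD49A, SNORD49B and SNORD65 (chr17:16438767-16480249, plus strand), had 1198, 1333, 1346 and 1323 CPM in shPTBP1 replicates 1 to 4 and 1037, 1049, 1090 and 1058 CPM in shSCR replicates 1 to 4. All shPTBP1 libraries were above all shSCR libraries, with shPTBP1 replicate 1 closest to them. The log2 fold change was 0.30 (SE 0.0550, adjusted p = 0.00795).

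SNHG8, the host of SNORA24 (chr4:118278703-118285316, plus strand), had 211, 252, 247 and 260 CPM in shPTBP1 and 197, 181, 208 and 192 CPM in shSCR. The groups did not overlap, but shPTBP1 replicate 1 was just above the highest control. The log2 fold change was 0.32 (SE 0.0795, adjusted p = 0.0353). PRSS12, a protein-coding gene on the opposite strand of this locus, had 512 counts over all libraries against 2712 for SNHG8, and counts of genes that overlap on opposite strands cannot be separated where the counting did not use strand.

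SNHG6, the host of SNORD87 on chromosome 8, had 928, 1045, 1099 and 1048 CPM in shPTBP1 and 862, 695, 866 and 894 CPM in shSCR. The lowest control library, shSCR replicate 2, was far from the other 3, and the highest control was close to shPTBP1 replicate 1. The log2 fold change was 0.31 (SE 0.0806, adjusted p = 0.0391).

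SNHG5, the host of SNORD50A and SNORD50B (chr6:85650491-85678932, minus strand) and the highest of the host genes, had 1904, 2294, 2365 and 2192 CPM in shPTBP1 and 1890, 1519, 1822 and 1895 CPM in shSCR. The groups did not overlap, by a margin between 1895 and 1904 CPM. The log2 fold change was 0.30 (SE 0.0811, adjusted p = 0.0493), just under the threshold.

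**Figure D2:**
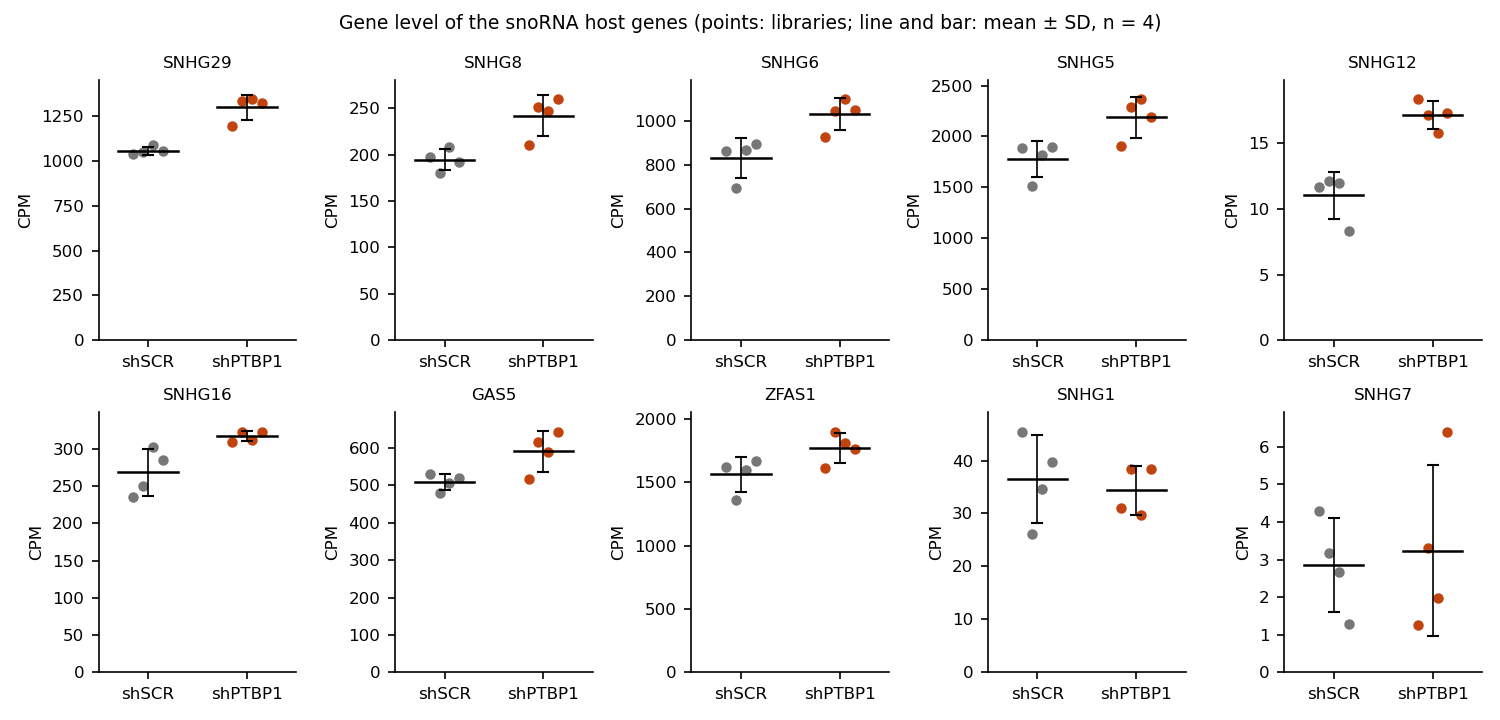
CPM of each host gene (y axis, starting at 0) in the 4 shSCR and the 4 shPTBP1 libraries, with 1 point per library and the mean and SD as a line and bar. SNHG29, SNHG8, SNHG6, SNHG5, SNHG12 and SNHG16 had no overlap between groups, while GAS5, ZFAS1, SNHG1 and SNHG7 overlapped.

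The other host genes were not called. SNHG12, which carries SNORD99, SNORA61, SNORA44 and SNORA16A (chr1:28578538-28583132, minus strand), had the largest fold of the 9 genes, at 18.4, 17.2, 15.8 and 17.3 CPM in shPTBP1 and 11.7, 12.1, 12.0 and 8.34 CPM in shSCR. Its groups did not overlap, yet these values rest on 13 to 29 counts per library (log2 fold change 0.63, SE 0.199, adjusted p = 0.0875). TRNAU1AP, on the opposite strand of this locus, had 87 counts over all libraries against 175 for SNHG12. SNHG16, the host of SNORD1A, SNORD1B and SNORD1C (chr17:76557727-76670985, plus strand), was at 317 ± 7.11 CPM in shPTBP1 and 268 ± 31.2 CPM in shSCR without overlap (log2 fold change 0.24, adjusted p = 0.106). The spread of SNHG16 was wide in the control libraries, from 235 to 303 CPM.

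GAS5 (growth arrest specific 5, chr1:173858559-173868882, minus strand), whose introns hold 11 of the 39 snoRNAs, was at 591 ± 54.9 CPM in shPTBP1 and 509 ± 21.2 CPM in shSCR. The lowest shPTBP1 library, at 516 CPM, lay within the control range, and the log2 fold change was 0.22 (adjusted p = 0.107, exact permutation p = 0.0857). ZBTB37 overlaps it on the opposite strand, with 158 counts over all libraries against 6828 for GAS5. ZFAS1, the antisense neighbour of ZNFX1 and host of SNORD12, SNORD12B and SNORD12C (chr20:49278178-49299600, plus strand), was at 1771 ± 119 CPM and 1564 ± 137 CPM, with overlapping groups (log2 fold change 0.18, adjusted p = 0.180). ZFAS1 is thus the host gene whose isoforms changed, as described below, while its summed level did not pass the test. SNHG1, the host of 9 snoRNAs including SNORD25 to SNORD31 (chr11:62851978-62855953, minus strand), was at 34.3 ± 4.68 CPM and 36.5 ± 8.22 CPM (log2 fold change -0.09, adjusted p = 0.836) and was the only one of the 9 with a negative value. SNHG7, the host of SNORA17A and SNORA17B (chr9:136721366-136728184, minus strand), had 20 counts in the shPTBP1 libraries and 18 in the shSCR libraries, 2 to 10 per library, and a difference was not detectable at this depth. Its levels were 3.24 ± 2.27 and 2.86 ± 1.25 CPM.

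The calls depended on which libraries were included. With 1 library left out at a time, SNHG29 was called in 8 of 8 fits (adjusted p from 0.00313 to 0.0395), SNHG8 in 2, SNHG6 in 1, SNHG5 in 1 and GAS5 in 1. Without shPTBP1 replicate 1, which was the lowest of its group for SNHG29, SNHG8, SNHG6, SNHG5, GAS5 and ZFAS1, 5 host genes were called, the 4 above and GAS5. Without shSCR replicate 3, SNHG29 and SNHG8 were called. Without shPTBP1 replicate 2, 3 or 4, or shSCR replicate 1, 2 or 4, SNHG29 alone was called. The log2 fold changes of the 4 genes stayed positive in all of these fits, between 0.23 and 0.38.

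**Figure D3:**
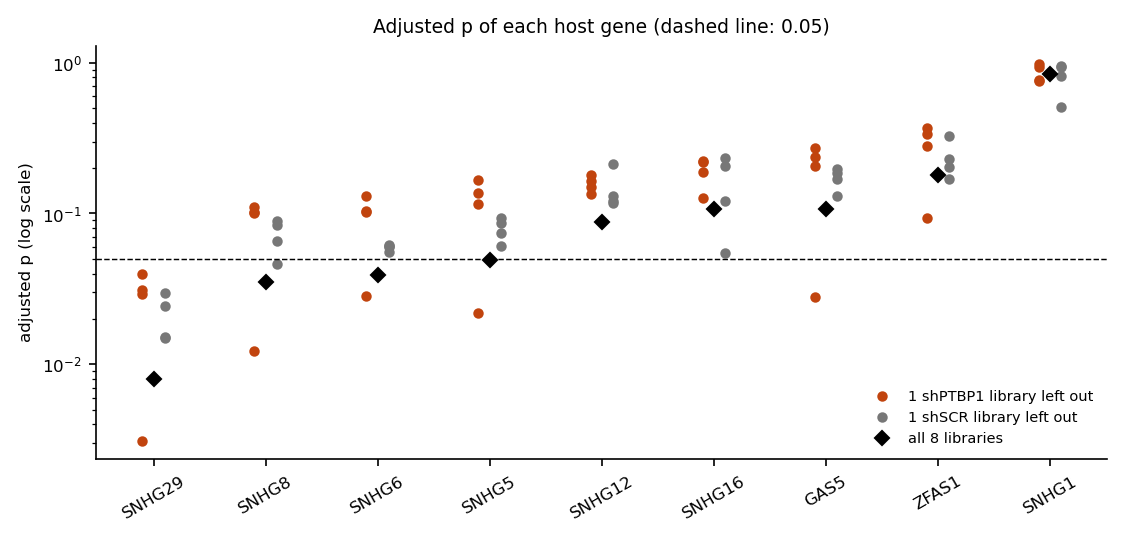
Adjusted p of each host gene from edgeR (y axis, log scale) with all 8 libraries (black diamonds) and with 1 shPTBP1 library (red) or 1 shSCR library (grey) left out, and a dashed line at 0.05. SNHG29 lies under the line in every fit, up to 0.0395, and SNHG8, SNHG6 and SNHG5 lie under it in 1 or 2 of the 8 reduced fits.

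Across the 8 libraries most host genes varied together, SNHG1 and SNHG12 less so. Pearson's r of each gene's log2 CPM with the mean of the other members was 0.90 to 0.96 for SNHG5, SNHG6, SNHG8, SNHG29, GAS5 and ZFAS1, 0.73 for SNHG16, 0.56 for SNHG12 and 0.11 for SNHG1, over 8 libraries that share their depth and the group difference. The mean of the centred log2 CPM values was lowest in shSCR replicate 2 (-0.27) and highest in shPTBP1 replicates 2 and 4 (0.19 and 0.19), and shPTBP1 replicate 1 (0.02) was the nearest of its group to the controls. The 3 of 7588 other genes whose profile was most like this mean were C1QBP (r = 0.98), FAM200B (r = 0.98) and FTL (r = 0.97). C1QBP codes for a mitochondrial matrix protein and FTL for the light chain of ferritin. These values describe 8 libraries and carry no test.

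To see whether related genes moved, other lists were read in the same fit. Of 21 other non-coding snoRNA hosts 12 were tested, and 4 were called higher and 1 lower, with a median log2 fold change of 0.38. SNHG32 was the most abundant of them, with 1765 to 1879 CPM in shPTBP1 and 1218 to 1435 CPM in shSCR (log2 fold change 0.40, SE 0.0610, adjusted p = 0.00226), and its groups did not overlap. SNHG15 (log2 fold change 0.50, adjusted p = 0.0142), SNHG19 (0.60, adjusted p = 0.0359) and EPB41L4A-AS1 (0.36, adjusted p = 0.0197) were the other genes called higher. SNHG17 went the other way, with 30.7 to 37.3 CPM in shPTBP1 and 42.0 to 53.9 CPM in shSCR (log2 fold change -0.51, SE 0.128, adjusted p = 0.0340). The direction was therefore not shared by all non-coding snoRNA hosts.

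Hosts of any kind were taken from the annotation as genes with a snoRNA gene of the same strand within their bounds. Whether the snoRNA lay in an intron or an exon was not asked. Of 468 such genes 291 were tested, 16 were called higher and 7 lower, with a median of 0.03 on the log2 scale. Among the 274 protein-coding hosts tested 12 were called higher and 6 lower, with a median of 0.02, and the called genes with the largest changes were HMGN1 (log2 fold change -1.16, adjusted p = 0.00928), RANBP1 (-0.93, adjusted p = 0.00595), MATR3 (0.77, adjusted p = 0.000398) and SLC39A11 (-0.67, adjusted p = 0.0434). HMGN1 is a nucleosome-binding protein, RANBP1 a regulator of the nuclear transport GTPase Ran, and MATR3 a nuclear RNA-binding protein. Of the 17 tested hosts of other types, members not included, 4 were called higher and 1 lower, with a median of 0.23. These 5 are the same non-coding hosts as above.

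Ribosomal protein genes, whose mRNAs carry the 5′TOP, had a positive fold in 70 of 75 tested genes. Of these, 5 were called higher and 0 lower, at a median log2 fold change of 0.12. Among the called genes were RPS27 (log2 fold change 0.40, adjusted p = 0.0193), RPSA (0.38, adjusted p = 0.0261) and RPL9 (0.33, adjusted p = 0.0347). RPS27 rose from 93.5 ± 5.47 to 124 ± 10.9 CPM (SD, n = 4 each). RPSA and RPS12 also carry intronic snoRNAs. The sign of the fold was thus the same as for most host genes, at a smaller median.

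Of 17 tested proteins of the snoRNA particle and its assembly, 1 was called. NUFIP1, an assembly factor, had 12.8 to 18.5 CPM in shPTBP1 and 0 to 8.34 CPM in shSCR, where shSCR replicate 2 had no count (log2 fold change 1.86, SE 0.470, adjusted p = 0.0359). The box C/D core proteins FBL, NOP56, NOP58 and SNU13 had log2 fold changes of -0.05, 0.18, 0.14 and 0.04, and DKC1, the pseudouridine synthase of box H/ACA particles, had 0.38 (adjusted p = 0.123). None of these 5 was called. Of 14 NMD factors tested 0 were called by edgeR and 0 by DESeq2, and 1, CASC3, had an unadjusted p under 0.05 in edgeR (log2 fold change 0.37, adjusted p = 0.151). The median log2 fold change of the NMD factors was -0.11.

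**Figure D4:**
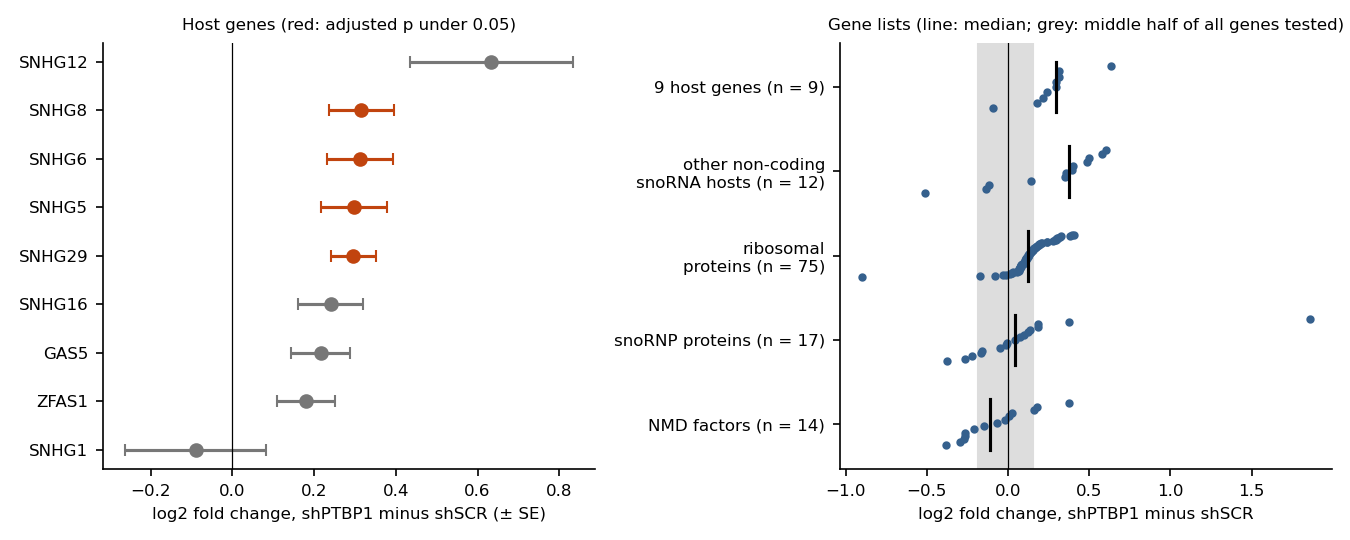
Log2 fold change, shPTBP1 minus shSCR (x axis), of the 9 tested host genes with SE (left; red marks an adjusted p under 0.05) and of each gene in 5 lists (right; black lines are medians and the grey band is the range from the lower to the upper quartile of all genes tested). The median of the host genes is 0.30, of other non-coding snoRNA hosts 0.38, of ribosomal proteins 0.12, of snoRNA particle proteins 0.04 and of NMD factors -0.11.

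The isoforms of the host genes were then compared as shares of each gene's counts, tested with diffSpliceDGE over 5464 isoforms, of which 1.12% were called (adjusted p under 0.05 and a change of at least 10 percentage points). Of the host genes' 266 isoforms with a count 49 in 7 genes were tested, and 1 was called, ZFAS1-205. Among these 49 the shares did not overlap between groups for 9, beside 10.7% of all isoforms tested.

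ZFAS1-205 (946 nt, 4 exons) fell from 29.0 ± 0.721% to 17.4 ± 0.481% of the ZFAS1 counts after PTBP1 KD (adjusted p = 7.36e-09). It held 17.0, 17.7, 17.0 and 17.9% in the shPTBP1 libraries and 29.6, 28.9, 28.0 and 29.5% in the shSCR libraries. The leading isoform, ZFAS1-204 (568 nt, 5 exons), held 74.1, 73.5, 73.2 and 73.0% in shPTBP1 and 60.4, 60.5, 61.7 and 61.2% in shSCR. The libraries of each group lay within 2 percentage points of each other for both isoforms, and the groups were far apart. ZFAS1-204 was not called (adjusted p = 0.251), although its mean change, 12.5 percentage points, was the larger. ZFAS1-205 had the 9th smallest p of all isoforms tested and was 54th of the 61 called isoforms by size of change.

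The exon printed above in capitals is what ZFAS1-204 has and ZFAS1-205 lacks, but ZFAS1-205 also starts further upstream and ends its leading exon earlier. Inclusion of the exon was computed from all ZFAS1 isoforms that span it, 5 with the exon and 4 without, on 2140 to 2875 counts per library. Inclusion was 78.3, 77.6, 77.7 and 77.4% in the shPTBP1 libraries and 64.1, 64.3, 66.0 and 65.2% in the shSCR libraries. All shPTBP1 libraries were above all shSCR libraries, by a mean of 12.8 percentage points (77.7 ± 0.402% against 64.9 ± 0.852%, n = 4 each, exact two-sided permutation p = 0.0286, the smallest that 4 against 4 allows). ZFAS1-201, a minor isoform that lacks the exon but starts within 2 bases of ZFAS1-204, held 1.07% in shPTBP1 against 1.79% in shSCR and was not called (adjusted p = 0.105). By size, the change in inclusion ranked 274th among 4022 splicing events of all genes.

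This inclusion rests mostly on ZFAS1-204 and ZFAS1-205 and so does not separate the exon from the start. It was therefore also computed within each start, an alternative added after the data were seen. Among isoforms with the start of ZFAS1-204, inclusion was 98.6 ± 0.152% in shPTBP1 and 97.1 ± 0.743% in shSCR, a difference of 1.41 percentage points on 1347 to 2145 counts per library. Among isoforms with the upstream start of ZFAS1-205, ZFAS1-202 and ZFAS1-206 with the exon and ZFAS1-203 and ZFAS1-205 without it, inclusion was 16.5 ± 0.539% and 10.2 ± 0.547%, a difference of 6.29 points on 630 to 989 counts. The groups did not overlap within either start (exact permutation p = 0.0286 each), and both differences were smaller than the one over all isoforms. Isoforms with the upstream start made up 25.4 ± 0.519% of the spanning counts in shPTBP1 and 37.1 ± 0.496% in shSCR, also without overlap (difference -11.7 points, exact permutation p = 0.0286).

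**Figure D5:**
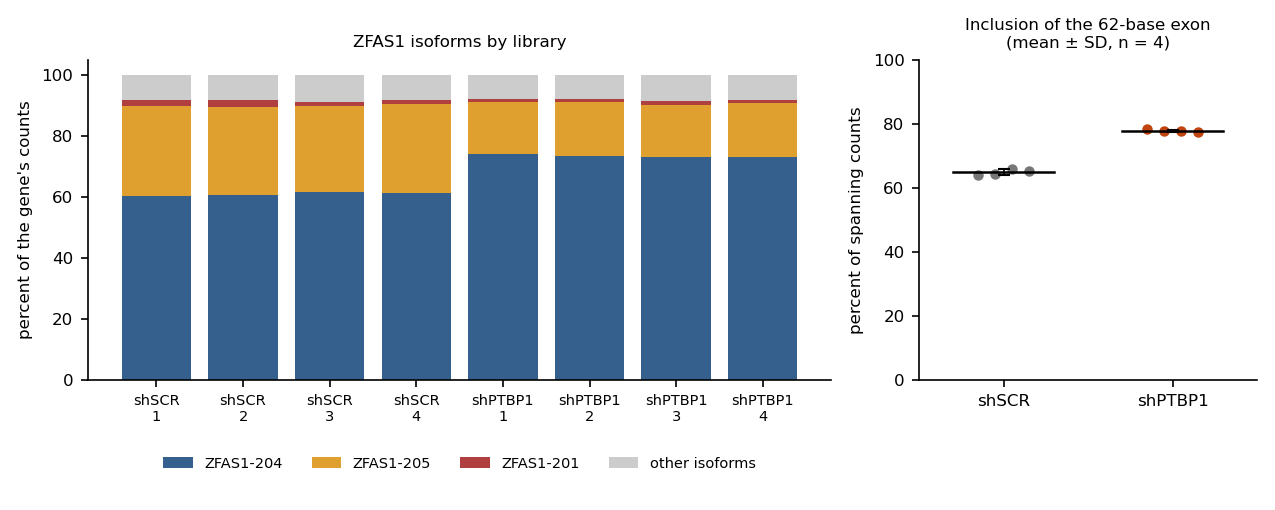
Left, shares of ZFAS1 isoforms in each library as percent of the gene's counts. Right, inclusion of the 62-base exon in percent of the counts that span it, whatever the start of the isoform, 1 point per library with mean and SD, at 64.9 ± 0.852% in shSCR and 77.7 ± 0.402% in shPTBP1.

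Among 30 splicing events in the host genes 5 had groups without overlap, 4 of 21 skipped exons and 1 of 7 exons with 2 alternative 3′ splice sites. Over all genes this was the case for 11.0% of skipped exons, 6.39% of exons with alternative 3′ sites and 6.62% of exons with alternative 5′ sites. ZFAS1 has 1 of the 5, described above. The 2 in GAS5 lie at the same exon, which has a 19-base and a 23-base form, and share counts. Set against the isoforms that skip the exon, the 19-base form made up 73.1 ± 3.56% in shPTBP1 and 65.9 ± 1.05% in shSCR (difference 7.25 percentage points, 230 to 355 counts per library). Set against the same skipping isoforms, the 23-base form made up 85.8 ± 2.06% and 84.2 ± 1.72%, with overlapping groups (exact permutation p = 0.257). Inclusion of both forms together was not computed. Of the 2 forms, the longer, at an alternative 3′ site, made up 69.0 ± 1.72% and 73.4 ± 1.66% (difference -4.45 points, 620 to 867 counts). In SNHG29 a 57-base exon (chr17:16441074-16441130) was included in 83.1, 83.3, 82.1 and 82.7% in shPTBP1 and 85.9, 85.7, 84.6 and 85.0% in shSCR, a difference of -2.51 percentage points on at least 1613 counts per library. In SNHG8 the 204-base form of an exon (chr4:118278934-118279137) made up 25.5 ± 5.69% and 37.9 ± 1.74% against skipping isoforms, on 41 to 78 counts per library. A more abundant 194-base form of this exon made up 78.6 ± 1.92% and 84.4 ± 2.29%, with overlapping groups (exact permutation p = 0.0571). SNHG8-211, the leading isoform of that gene, held 49.3 ± 1.46% and 55.5 ± 2.65% without overlap and was not called (adjusted p = 1.00).

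GAS5 had 75 isoforms with a count, the most of the host genes. Its leading isoform, GAS5-255 (607 nt), held 52.0 ± 1.41% in shPTBP1 and 54.2 ± 1.73% in shSCR, and GAS5-221 (631 nt) held 26.1 ± 1.43% and 21.9 ± 1.30% without overlap, and neither was called (adjusted p = 1.00 and 0.703). At the alternative 5′ site printed above, the form with the 39 added bases made up 34.9, 37.6, 36.7 and 37.9% in shPTBP1 and 30.8, 32.7, 35.2 and 34.1% in shSCR. These groups overlapped at shPTBP1 replicate 1 (difference 3.62 percentage points, exact permutation p = 0.0571).

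Among the other host genes the leading isoforms of SNHG5, SNHG6, SNHG16 and SNHG29 differed in mean share by less than 2 percentage points. SNHG5-202 held 82.1 ± 1.61% and 81.6 ± 0.780% of the SNHG5 counts, and SNHG6-201 held 79.7 ± 1.01% and 79.2 ± 0.978% of the SNHG6 counts. SNHG16-213 held 53.1 ± 0.969% and 54.4 ± 2.66%, and SNHG16-210 held 35.9 ± 1.55% and 34.9 ± 2.48%. SNHG29 was spread over several isoforms, SNHG29-239 (20.3 ± 0.535% and 20.3 ± 0.969%), SNHG29-204 (17.9 ± 0.685% and 20.1 ± 0.965%, without overlap), SNHG29-247 (14.8 ± 0.460% and 15.2 ± 0.678%) and SNHG29-235 (13.6 ± 0.657% and 13.4 ± 0.643%). SNHG8-207 held 16.2 ± 2.29% and 14.0 ± 1.92%, and SNHG8-203 held 13.4 ± 1.82% and 10.5 ± 1.38%. None of these was called, so the levels of the 4 called genes rose without a called change of isoform. The leading isoforms of SNHG1 and SNHG12 were not tested and had larger differences, with groups that overlapped. That of SNHG12 was too rare. The test compares isoforms of a gene that pass the filter, and SNHG1 had only 1 isoform with a mean of at least 10 counts. SNHG1-266 held 31.9 ± 8.98% in shPTBP1 and 40.4 ± 3.85% in shSCR (exact permutation p = 0.20), and SNHG12-213 held 23.9 ± 10.3% and 38.7 ± 11.6% (exact permutation p = 0.114), the latter on 3 to 10 counts per library.

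The snoRNAs themselves were all but absent from the counts. Annotation places 39 snoRNAs in the host genes, 32 SNORD and 7 SNORA, 14 of them taken from RefSeq (GRCh38.p14) only. The 25 with a row in the table had 3 counts over all 8 libraries, which is at the limit set by a count of 0 (3 counts, counting error only). Mature snoRNAs have no poly(A) tail for the cDNA kit to prime on, and the levels above are those of the host RNAs.

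Isoforms whose exons still hold a whole snoRNA report unspliced or differently spliced host RNA where most of the host's RNA has that snoRNA spliced out. Of the 61 hosts in the annotation with both kinds of isoform and enough counts, 7 were host genes examined here, and the groups did not overlap in 0 of the 61 (0.0%). In other hosts such as HSPD1, ITGB1 and HNRNPU such isoforms held 88.7% to 100% on average, so their share does not single out unspliced RNA. The widest difference was in DKC1, not a host gene examined here, at 40.3 ± 2.96% in shPTBP1 and 9.70 ± 18.9% in shSCR. There only shSCR replicate 3 (38.1%) reached the shPTBP1 range (exact permutation p = 0.0857). In GAS5 such isoforms held 5.88 ± 1.65% of counts in shPTBP1 and 5.78 ± 0.803% in shSCR (exact permutation p = 0.943). They held 3.50 ± 0.762% and 3.46 ± 0.505% in SNHG8, and 0.792 ± 0.201% and 0.757 ± 0.220% in SNHG29. SNHG5 and SNHG16 were under 1% in all libraries. The shares were higher in the rare genes SNHG12 (29.4 ± 10.6% and 21.4 ± 8.37%, exact permutation p = 0.229) and SNHG1 (21.6 ± 10.5% and 17.2 ± 5.06%, exact permutation p = 0.400), where the libraries varied more than the groups differed. No change in these shares was detectable in the 7 host genes examined here, and for the rare genes the depth leaves large changes undetectable.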

How the data were processed

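Nanopore cDNA libraries of 8 samples were analysed. The authors aligned reads to hg38 with minimap2, kept those with a mapping quality above 50, and deposited StringTie counts per annotated transcript, which are whole numbers without normalization. Versions, annotation and strand setting are not given in the sources used here. The authors also deposited a table named TPM whose values are CPM, each count divided by its library total per 1000000 counts (checked to within 1e-06).

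Of 254070 transcripts 252562 were assigned to genes of GENCODE version 44. The others held 0.0876% to 0.115% of counts and were left out of gene sums. Gene sums were tested with edgeR 4.0.16 (TMM, filterByExpr with a minimum count of 10, quasi-likelihood test, group as the only term, Benjamini-Hochberg over all genes tested, threshold 0.05), and isoforms with diffSpliceDGE. Mean annotated lengths were weighted by counts. CPM of genes used TMM-scaled totals. Single values were compared by exact two-sided permutation tests, for which 4 against 4 allows no p below 0.0286. Splicing events were built from the exons of isoforms and need a mean of at least 20 spanning counts per library, and the event analysis was chosen after the data were seen.

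Alternatives were DESeq2 1.42.0, limma 3.58.1 (voom and trend on log2 of the CPM table plus 1), other size factors and filters, thinning, a replicate block and leaving out each library. Scripts ran in R 4.3.3 and Python 3.11.15 (pandas 2.3.3, numpy 2.4.6, scipy 1.17.1, figures by matplotlib 3.10.9). The tests were tested on simulated data. Intervals and floors cover counting error only, because amplified cDNA molecules are not independent. No 2 libraries of a group were copies of each other (squared differences 2.12 to 3.96 times those of counting alone).

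The host genes and the lists were chosen with earlier results of these data known. Named are all host genes, their isoforms that were called or held at least 10% of counts with a mean of at least 10 counts, of each other list the called genes with the largest changes (at most 4, or 8 for non-coding hosts), the 3 most alike genes, PTBP1 and PTBP2. Genes of the snoRNA particle and markers that were not called were named in addition. Some items are not reported here.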

Additional observations from a re-analysis of the deposited data

Results flagged for a closer look

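Of 68 groups of 4 libraries examined, 6 held a library whose gap to the nearest other library was too large a part of the group's range by Dixon's test at the 95% level, and chance alone flags about 1 in 20 such groups. SNHG6 was at 695 CPM in shSCR replicate 2, while the other 3 controls were at 862 to 894 CPM. SNHG12 was at 8.34 CPM in shSCR replicate 4, beside 11.7 to 12.1 CPM. SNHG29 was at 1198 CPM in shPTBP1 replicate 1, beside 1323 to 1346 CPM. SNHG1-266 held 46.2% of its gene's counts in shSCR replicate 3, beside 37.8% to 39.0%. SNHG16-210 held 38.2% in shPTBP1 replicate 3, beside 35.0% to 35.2%. The share of SNHG16 isoforms that hold a snoRNA was 0% in shPTBP1 replicate 3, beside 0.198% to 0.204%. These shares are 0 counts beside 1 count per library, so this flag carries no information. Without shSCR replicate 2 SNHG6 was not called, and without shPTBP1 replicate 1 SNHG29 stayed called.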

How the results depend on the processing

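Leaving out 1 library at a time gave 77 to 168 genes called higher and 107 to 190 called lower, against 179 and 242 with all libraries, 1 to 5 host genes called higher against 4, and, over the other lists together, 1 to 16 genes called higher against 10 and 0 to 1 called lower against 1. Fewer libraries lower the power of these fits. DESeq2 called 157 genes lower and 140 higher and the same 4 host genes. The 4 host genes also remained called with DESeq2's size factors in edgeR, without a filter, with a mean of at least 50 counts, after thinning, and with a trend over transcript length removed, which was added after the data were seen. With limma-voom and limma-trend SNHG29, SNHG6 and SNHG8 were called and SNHG5 was not (the lowest and highest adjusted p of SNHG5 over all settings other than leaving out a library were 0.00429 and 0.0885). Without a filter, with a mean of at least 50 counts, with limma-trend and with the length trend removed 2 genes of the other lists were lower. With the replicate number as a block 1 host gene, SNHG29, was called higher, and 137 genes were higher and 186 lower over all genes. The numbers were not treated as pairing, because same-numbered libraries did not deviate together (correlations -0.0609 to -0.0149). ZFAS1-205 was the called isoform in every fit except with a minimum change of 20 percentage points, where 0 were called, and limma's diffSplice called 2, adding ZFAS1-204. Inclusion of the ZFAS1 exon differed by 12.6 to 13.2 percentage points with any 1 library left out, by 13.1 points from the 2 leading isoforms alone, and by 1.41 and 6.29 points within the isoforms that share the start of ZFAS1-204 and of ZFAS1-205, which was added after the data were seen. Values that were near 0 changed sign when 1 library was left out: SNHG1 ranged from -0.22 to 0.0358 (log2 fold change, the highest value without shSCR replicate 1), SNHG16-210 from -0.191 to 1.79, SNHG29-239 from -0.274 to 0.471 and SNHG29-235 from -0.0133 to 0.50 percentage points. The count of host genes without overlap in the share of snoRNA-holding isoforms was 0 under every alternative. Depth limits SNHG7, SNHG12 and SNHG1, with 38, 175 and 441 counts in all.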
